A study of Homo sapiens with 6 samples.

Results

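The 39 genes described here are linked to mitosis and chromosome segregation, and other genes of these processes lie outside the list. They include cyclins and kinases that drive mitotic entry, spindle checkpoint proteins, centromere and kinetochore proteins, kinesins and other spindle proteins, and chromosome structure proteins. Their levels were compared between A549 cells carrying LOC401312, a long non-coding RNA, and A549 cells carrying an empty vector. The members were the rows of the deposited gene table whose gene name was on a list of 39 names. All 39 were found among the 38170 features of the table, and all 39 passed the filter on low counts, as did 19620 features in all. A549 is a human lung adenocarcinoma line. The carrier was piggyBac, a transposon that integrates its cargo into the genome, and the controls received it without an insert. There were 3 LOC401312 libraries and 3 vector libraries of total RNA, with the cells grown in the same serum-supplemented medium. The sources used here do not give the promoter driving LOC401312, the number of clones or the number of separate cultures. The p-values therefore reflect library-to-library spread, part or all of which may be technical.

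The libraries held 65823845 to 70202062 counts for LOC401312 and 60971105 to 73994619 for vector. The STEAP1B entry, which holds LOC401312, had 94628, 92527 and 90297 counts in LOC401312 libraries, against 9, 11 and 23 in vector libraries. For LOC401312 replicates 2 and 3 the genotype label reads LOC401313 and LOC401314, against the title, so results are also given without them. The 7 markers of A549 and epithelial cells were measured in every library and summed to 14505 to 15059 CPM (counts scaled to library size) in LOC401312 libraries, against 15281 to 16330 in vector libraries. CDH1 was higher in LOC401312 libraries (104 to 110 CPM against 74.5 to 77.9). AKR1B10 (1548 to 1612 against 2108 to 2230) and AKR1C1 (701 to 721 against 958 to 1066) were lower, and EPCAM was at 1.69 to 2.85 CPM throughout. Markers of other cells also differed between libraries. The 7 fibroblast and endothelial markers summed to 21.6 to 23.2 CPM in LOC401312 libraries, against 37.3 to 49.3 in vector libraries. Of these, COL1A1 and COL1A2 were lower in every LOC401312 library than in any vector library. DCN, LUM, PECAM1, VWF and CDH5 had overlapping groups. DCN and LUM were higher in every LOC401312 library than in vector replicates 2 and 3, and lower than in vector replicate 1. The 5 urothelial markers summed to 0.899 to 1.25 CPM in LOC401312 libraries, against 5.60 to 7.87 in vector libraries. Most of that urothelial gap was KRT13, at 0 to 0.0709 CPM in LOC401312 libraries, against 4.23 to 4.65 in vector libraries. KRT5 reached 2.2 CPM in vector replicate 3 and was at most 0.301 in any other library. UPK1A and UPK2 had overlapping groups, and UPK3A was at 0.0539 CPM or below. The 7 placental markers summed to 1.53, 99.1 and 89.1 CPM in LOC401312 replicates 1, 2 and 3, against 0.808 to 1.72 in vector libraries. The 6 haematopoietic markers summed to 0.494 to 0.652 CPM in LOC401312 libraries, against 23.9, 0.786 and 0.358 in vector replicates 1, 2 and 3. None of these markers was at 0 in all libraries. The part of these differences in the results on mitotic genes was not tested.

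Mitosis begins when cyclin B bound to CDK1 reaches a threshold of activity, helped by Polo-like and Aurora kinases. Kinetochores, built on centromeres that carry the histone variant CENPA, then attach chromosomes to spindle microtubules, and the spindle checkpoint holds the cell until every kinetochore is attached. Most of these genes are transcribed late in the cell cycle, when B-MYB and FOXM1 act with the MuvB complex at a promoter element called CHR, often beside CCAAT boxes bound by NF-Y. In a growing population, RNA from such genes follows both the level in each dividing cell and the share of cells in late cycle, and bulk samples cannot tell these apart.

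The promoter windows of the 9 members that passed the test described below are shown first, in the order of their log2 change. The windows are RefSeq's, build GRCh38.p14, from 250 bases before to 50 bases after the transcription start, 5′ to 3′ along the gene. Capitals mark CHR (TTTGAA or TTCGAA) and CCAAT (or ATTGG), each searched on both strands, so that TTCAAA also counted as CHR and TTCGAA is its own reverse complement. The windows of CENPA (chr2:26785806-26786105, plus strand), NCAPH (chr2:96335516-96335815, plus strand), SPC25 (chr2:168890381-168890680, minus strand), BUB1 (chr2:110678014-110678313, minus strand), SGO2 (chr2:200525892-200526191, plus strand), CCNB2 (chr15:59104896-59105195, plus strand), PLK1 (chr16:23678639-23678938, plus strand) and CCNB1 (chr5:69166900-69167199, plus strand) belong to members with lower RNA in LOC401312 cells. The window of CENPE (chr4:103198294-103198593, minus strand) belongs to the member with higher RNA. SGO2 has 2 overlapping windows in RefSeq, and the upstream one is printed.
CENPA: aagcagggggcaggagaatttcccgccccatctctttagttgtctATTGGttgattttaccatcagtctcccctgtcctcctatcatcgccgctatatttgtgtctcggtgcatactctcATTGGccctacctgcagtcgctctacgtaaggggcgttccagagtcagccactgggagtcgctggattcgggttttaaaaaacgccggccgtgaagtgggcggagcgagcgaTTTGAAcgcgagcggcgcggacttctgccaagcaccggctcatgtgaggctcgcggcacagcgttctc
NCAPH: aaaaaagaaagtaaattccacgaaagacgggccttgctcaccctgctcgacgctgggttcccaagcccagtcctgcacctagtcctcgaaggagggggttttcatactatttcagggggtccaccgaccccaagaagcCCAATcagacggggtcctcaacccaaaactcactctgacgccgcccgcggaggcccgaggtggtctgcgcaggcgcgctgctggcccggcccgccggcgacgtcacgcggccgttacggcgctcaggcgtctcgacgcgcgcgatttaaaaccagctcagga
SPC25: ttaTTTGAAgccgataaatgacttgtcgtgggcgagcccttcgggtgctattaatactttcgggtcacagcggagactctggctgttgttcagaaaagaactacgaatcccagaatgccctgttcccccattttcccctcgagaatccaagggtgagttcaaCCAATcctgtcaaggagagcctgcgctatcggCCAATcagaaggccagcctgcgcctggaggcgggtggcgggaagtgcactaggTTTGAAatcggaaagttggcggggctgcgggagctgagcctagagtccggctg
BUB1: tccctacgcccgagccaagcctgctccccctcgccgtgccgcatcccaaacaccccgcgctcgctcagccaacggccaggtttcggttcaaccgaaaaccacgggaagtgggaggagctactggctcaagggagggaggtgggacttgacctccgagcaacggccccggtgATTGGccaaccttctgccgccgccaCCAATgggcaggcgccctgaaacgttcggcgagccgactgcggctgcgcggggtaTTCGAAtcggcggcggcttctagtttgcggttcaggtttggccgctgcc
SGO2: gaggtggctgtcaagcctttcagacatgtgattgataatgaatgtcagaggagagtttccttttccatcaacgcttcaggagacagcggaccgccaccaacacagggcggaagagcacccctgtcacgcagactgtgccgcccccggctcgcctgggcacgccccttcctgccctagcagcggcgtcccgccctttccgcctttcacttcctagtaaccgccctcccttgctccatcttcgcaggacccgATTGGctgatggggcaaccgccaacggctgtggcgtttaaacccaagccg
CCNB2: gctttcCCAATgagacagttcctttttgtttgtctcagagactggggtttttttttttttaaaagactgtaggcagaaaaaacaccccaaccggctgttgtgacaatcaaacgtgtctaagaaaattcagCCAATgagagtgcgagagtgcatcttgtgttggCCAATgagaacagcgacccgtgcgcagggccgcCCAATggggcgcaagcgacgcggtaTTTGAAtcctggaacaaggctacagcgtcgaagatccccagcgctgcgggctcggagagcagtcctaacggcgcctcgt
PLK1: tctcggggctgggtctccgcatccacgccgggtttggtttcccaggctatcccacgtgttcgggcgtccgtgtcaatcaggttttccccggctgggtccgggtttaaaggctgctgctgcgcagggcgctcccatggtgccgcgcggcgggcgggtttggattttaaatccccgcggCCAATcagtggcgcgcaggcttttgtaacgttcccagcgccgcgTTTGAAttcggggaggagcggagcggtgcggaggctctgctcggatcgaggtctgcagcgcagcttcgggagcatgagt
CCNB1: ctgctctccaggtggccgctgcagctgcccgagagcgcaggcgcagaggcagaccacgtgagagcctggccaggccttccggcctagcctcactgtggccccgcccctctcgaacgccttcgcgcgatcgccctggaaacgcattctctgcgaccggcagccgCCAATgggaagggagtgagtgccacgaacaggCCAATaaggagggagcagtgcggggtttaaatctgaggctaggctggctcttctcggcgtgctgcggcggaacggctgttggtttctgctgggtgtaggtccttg
CENPE: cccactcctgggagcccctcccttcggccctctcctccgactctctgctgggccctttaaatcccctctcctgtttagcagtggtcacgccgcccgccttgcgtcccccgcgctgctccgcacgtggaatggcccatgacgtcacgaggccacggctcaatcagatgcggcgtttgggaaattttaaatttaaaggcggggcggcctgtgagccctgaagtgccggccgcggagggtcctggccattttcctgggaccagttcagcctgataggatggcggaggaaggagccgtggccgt

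CHR began 18 bases before the start in CENPA and 29 bases before it in both CCNB2 and PLK1. In SPC25 it began 247 and 3 bases before the start, and in BUB1 as TTCGAA at position 2, with the first transcribed base as 1. NCAPH, SGO2 and CCNB1, which also fell, held neither spelling searched as CHR in any window, and other spellings were not searched. CCNB2 held 4 CCAAT boxes, CENPA, SPC25, BUB1 and CCNB1 2 each, and NCAPH, SGO2 and PLK1 1 each. The CENPE window held neither element, which says only that these letters are absent from these 300 bases. RefSeq windows were matched for 32 members. Of these, 24 held CHR (75%), against 19.5% of 27305 genes with a window. CCAAT was held by 27 members (84.4%), against 39.7% of genes, and both elements by 20 members (62.5%), against 7.85% of genes. In the members' windows 2 matches overlapped another. These matches are descriptions of sequence, and they occur among members that passed the test below and among members that did not.

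Among the 39 members, 8 fell in LOC401312 cells, 1 rose and 30 did not pass the test (edgeR quasi-likelihood test, adjusted p of 0.05 over all 19620 features). The same rule called 4.58% of all tested features lower and 4.13% higher. The 8 that fell were CENPA, NCAPH, SPC25, BUB1, SGO2, CCNB2, PLK1 and CCNB1, and CENPE rose. The median log2 change was -0.09 over the 39 members and 0.00 over all tested features, and 31 members had a negative and 8 a positive value. The FPKM values (fragment counts scaled for length and library total) gave a median of 0.03 over the members, on a scale on which the median feature at or above a mean of 5 FPKM was 0.11 higher in LOC401312 cells. DESeq2 also called 8 members lower and 1 higher, against 6.87% and 7.04% of the features for which it gave an adjusted p. In TMM-scaled CPM, 16 members had every LOC401312 library below every vector library and 3 had every LOC401312 library above. Over all features these shares were 13.9% and 14%. Among the 8887 features at least as abundant as the lowest member, 8.14% were called lower and 5.9% higher.

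**Figure D1:**
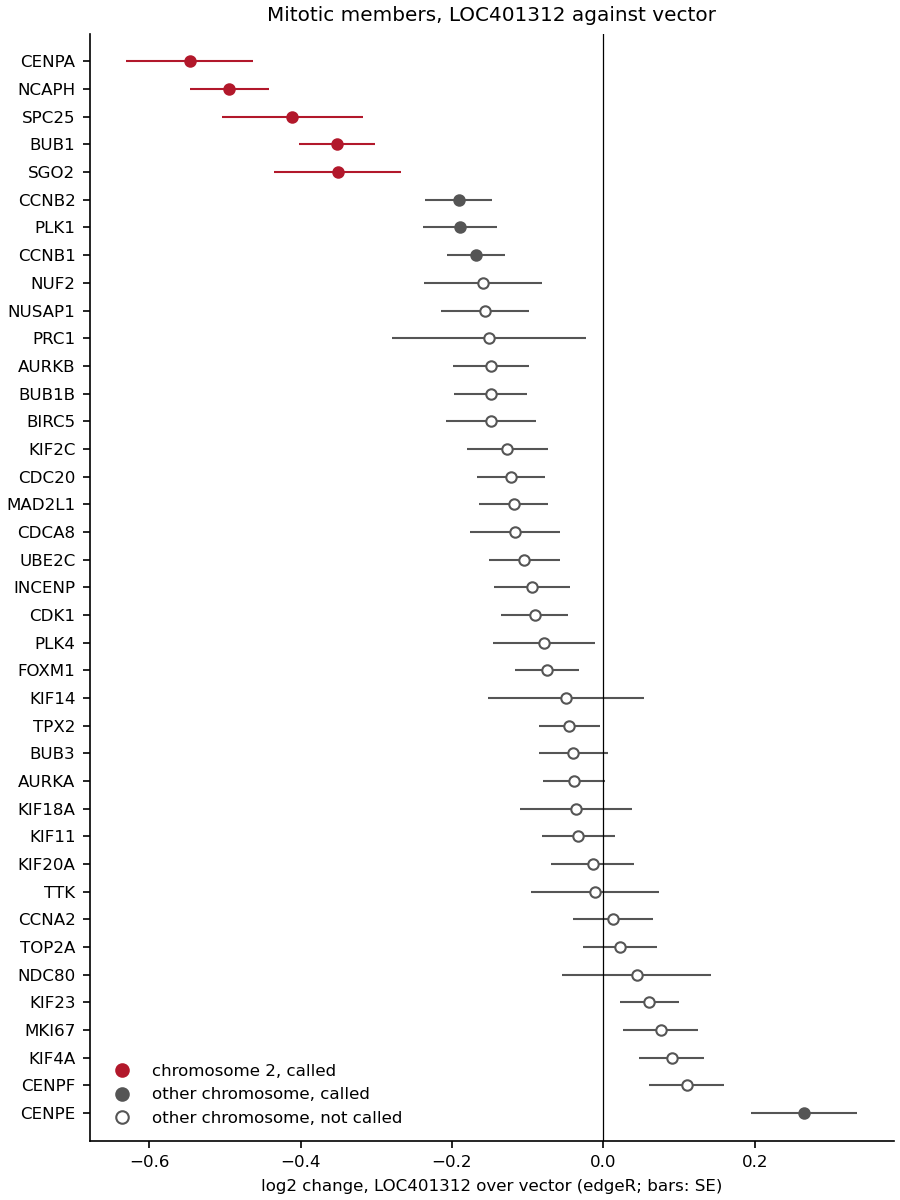
Log2 change of each of the 39 members in LOC401312 over vector libraries (edgeR, 3 libraries each), with bars of 1 SE, red for chromosome 2 and filled points for members that passed the test. The 5 members on chromosome 2 lie lowest, from -0.55 to -0.35, and CENPE, at 0.27, is highest.

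The mitotic cyclins and kinases held 3 of the 8 members that fell, each by a small amount. CCNB1, cyclin B1, which activates CDK1 for mitotic entry (ENSG00000134057, chr5:69167135-69178245, plus strand), had 185, 186 and 179 CPM in LOC401312 libraries, against 201, 207 and 210 in vector libraries. CCNB2, cyclin B2 (ENSG00000157456, chr15:59105126-59125045, plus strand), had 74.3, 74.9 and 78.1 CPM in LOC401312 libraries, against 84.6, 89.1 and 85.9 in vector libraries. For both cyclins the 3 LOC401312 libraries lay below the 3 vector libraries. PLK1, the Polo-like kinase of centrosome maturation and mitotic entry (ENSG00000166851, chr16:23677656-23690366, plus strand), had 141, 135 and 128 CPM in LOC401312 libraries, against 150, 160 and 151 in vector libraries, again with no overlap. CCNB1 was at -0.17 on the log2 scale (SE 0.04, adjusted p = 0.0236), CCNB2 at -0.19 (SE 0.04, 0.0245) and PLK1 at -0.19 (SE 0.05, 0.0394). Mean CPM in LOC401312 cells was 0.890, 0.876 and 0.877 of that in vector cells for the 3 genes in this order. In the deposited FPKM values all 3 genes had overlapping groups. The calls of CCNB1 and CCNB2 were kept without vector replicate 1 (adjusted p = 0.0168 and 0.0216) and lost without any other library (up to 0.108 and 0.123). That of PLK1 was kept without vector replicate 1 (0.0367) or LOC401312 replicate 1 (0.0445) and lost without any other library (up to 0.149).

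The other 4 genes of this group did not pass the test. CDK1, the kinase that both B cyclins activate, was at -0.09 (adjusted p = 0.260), PLK4, the kinase of centriole duplication, at -0.08 (0.560), and AURKA, the centrosomal Aurora kinase, at -0.04 (0.658). CCNA2, cyclin A2, which acts from S phase to early mitosis, was at 0.01 (0.925), with 72.9, 79.0 and 75.8 CPM in LOC401312 libraries, against 76.7, 78.4 and 70.6 in vector libraries. Its groups overlapped, unlike those of the B cyclins and of CDK1, which was lower in every LOC401312 library.

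**Figure D2:**
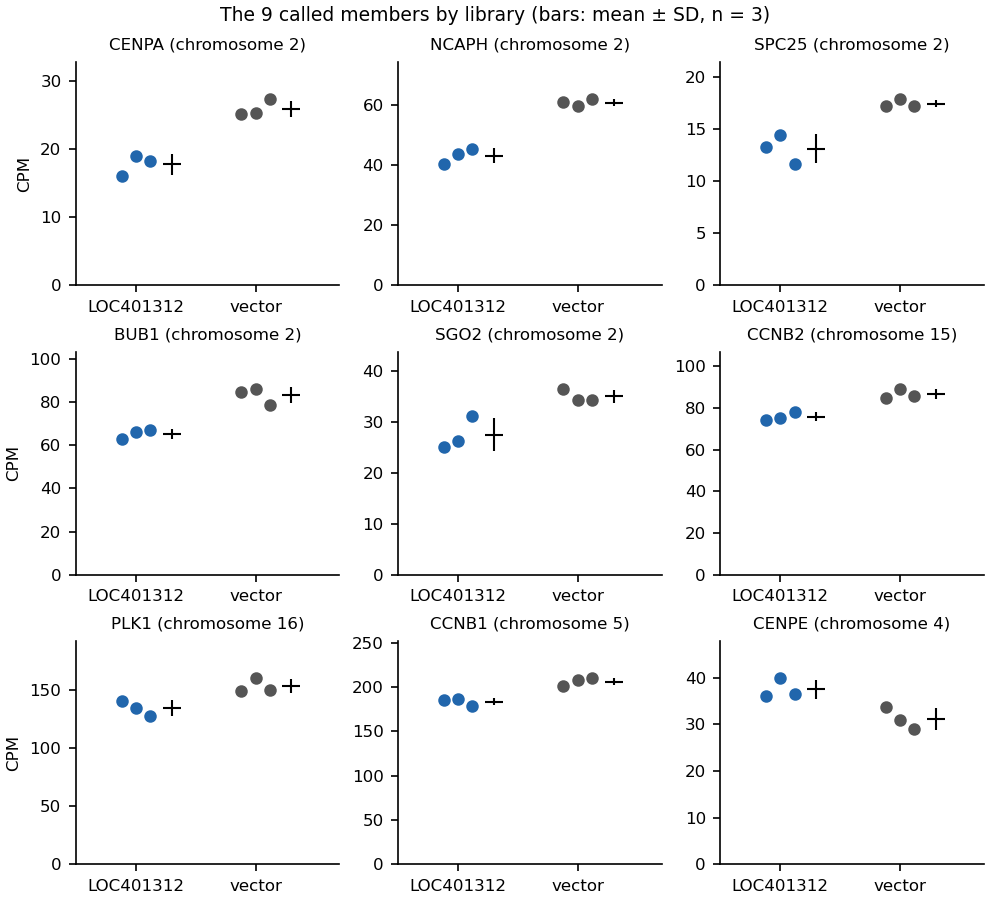
CPM of the 9 members that passed the test in each of the 3 LOC401312 and 3 vector libraries, with a vertical axis from 0 for each gene and crosses for the mean ± SD (n = 3). In all 9 panels the LOC401312 and vector points lie apart, with LOC401312 above vector for CENPE.

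Among the 5 checkpoint genes, BUB1 fell, and the others also had negative changes that did not pass the test, although on the FPKM scale 3 of the 5 were positive. BUB1, the kinase that brings other checkpoint proteins to unattached kinetochores (ENSG00000169679, chr2:110637528-110678063, minus strand), had 62.8, 66.0 and 67.0 CPM in LOC401312 libraries, against 84.8, 86.2 and 78.9 in vector libraries. The groups lay far apart, and the change was -0.35 (SE 0.05, adjusted p = 0.00218). BUB1B, which encodes BUBR1, had 56.0, 57.0 and 55.5 CPM in LOC401312 libraries, against 62.3, 59.3 and 65.1 in vector libraries, with no overlap, and was at -0.15 (0.0914). MAD2L1, the checkpoint protein that binds CDC20, was at -0.12 (0.155), BUB3, which holds BUB1 and BUBR1 at kinetochores, at -0.04 (0.683), and the kinase TTK at -0.01 (0.962). TTK and BUB3 had overlapping groups, and MAD2L1 was lower in every LOC401312 library.

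The 7 centromere and kinetochore genes were the group with calls in both directions, with 3 lower, 1 higher and 3 not called. CENPA, the histone H3 variant that marks centromeres (ENSG00000115163, chr2:26764289-26801067, plus strand), had 16, 19.1 and 18.3 CPM in LOC401312 libraries, against 25.2, 25.4 and 27.3 in vector libraries. The highest LOC401312 library was well below the lowest vector library. The mean was 17.8 ± 1.58 CPM in LOC401312 cells and 26.0 ± 1.19 CPM in vector cells (SD, n = 3 each), a change of -0.55 (SE 0.08, adjusted p = 0.00328). SPC25, a subunit of the NDC80 complex that binds microtubules (ENSG00000152253, chr2:168834132-168913371, minus strand), had 13.3, 14.4 and 11.7 CPM in LOC401312 libraries, against 17.2, 17.8 and 17.3 in vector libraries. It was at -0.41 (SE 0.09, 0.0227), with no overlap. SGO2, which protects cohesin at centromeres (ENSG00000163535, chr2:200510008-200570142, plus strand), had 25.1, 26.2 and 31.2 CPM in LOC401312 libraries, against 36.5, 34.3 and 34.4 in vector libraries. It was at -0.35 (SE 0.08, 0.0286), with replicate 3 nearest to vector.

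CENPE, the kinesin-like motor that moves chromosomes toward the spindle equator (ENSG00000138778, chr4:103105349-103198445, minus strand), was the member that rose. It had 36.2, 39.9 and 36.6 CPM in LOC401312 libraries, against 33.7, 31.0 and 29.0 in vector libraries, and was at 0.27 (SE 0.07, adjusted p = 0.0429). Its call was kept without vector replicate 1 (0.0211) and lost without any other library (up to 0.171). SPC25 kept its call without LOC401312 replicate 2 (0.0305) or vector replicate 1 (0.0354) and lost it without any other library (up to 0.0790). SGO2 kept its call without LOC401312 replicate 3 (0.0102) and lost it without any other library (up to 0.120). CENPA and BUB1 kept theirs without any 1 library (up to 0.0218 and 0.0177).

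The other subunits of the NDC80 complex in the list did not pass the test. NUF2 was at -0.16 (adjusted p = 0.262), with 25.6, 29.5 and 30.7 CPM in LOC401312 libraries, against 33.3, 32.0 and 30.4 in vector libraries. NDC80 was at 0.04 (0.856), with 13.9, 15.1 and 14.6 CPM in LOC401312 libraries, against 15.9, 13.1 and 13.2 in vector libraries. Both had overlapping groups. CENPF, a large protein of the outer kinetochore, was at 0.11 (0.222), and it passed the test without vector replicate 1 (0.17, 0.0230). Outside the 39 members, the fourth subunit SPC24, on chromosome 19, fell by 0.37 on the log2 scale (SE 0.08, 0.0215), with 14.8, 16.5 and 16.2 CPM in LOC401312 libraries, against 19.1, 20.6 and 21.4 in vector libraries. HJURP, the chaperone that loads CENPA, also on chromosome 2, had 97.6, 105 and 107 CPM in LOC401312 libraries, against 160, 158 and 154 in vector libraries. The groups lay far apart, at -0.61 (SE 0.05, 6.80e-05), and at -0.39 (0.000718) with each chromosome's median removed.

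No gene of the chromosomal passenger complex passed the test, although its 4 members had changes in a narrow range of -0.15 to -0.09 (2 of them positive on the FPKM scale). By edgeR 2 of the 4 were lower at an unadjusted p under 0.05, against 11.4% of all features. DESeq2 and limma on FPKM also called 0. AURKB, its Aurora kinase, had 56.3, 51.4 and 52.7 CPM in LOC401312 libraries, against 59.6, 60.5 and 57.7 in vector libraries, and was at -0.15 (adjusted p = 0.102). Its groups did not overlap. BIRC5, survivin, was at -0.15 (0.170), CDCA8, borealin, at -0.12 (0.284), and the scaffold INCENP at -0.09 (0.306), all with overlap.

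None of the 7 genes grouped here as kinesins passed the test, with changes from -0.13 to 0.09. CENPE, the kinesin-like motor that rose, was grouped with the kinetochore genes. By edgeR 1 of the 7 was lower at an unadjusted p under 0.05, against 11.4% of all features, and DESeq2 called 0. By limma on FPKM 1 was called higher, KIF4A, against 8.35% of all features. KIF2C, the kinesin that removes tubulin at wrong attachments, was at -0.13 (adjusted p = 0.194), and KIF4A, the chromosome-bound motor, at 0.09 (0.251). KIF23, which bundles microtubules in the midzone, had 140, 143 and 141 CPM in LOC401312 libraries, against 138, 132 and 136 in vector libraries, and was at 0.06 (0.414). KIF23 and KIF4A were both higher in every LOC401312 library than in any vector library, and KIF2C was lower in every LOC401312 library. KIF14 was at -0.05 (0.843), KIF18A at -0.04 (0.840), the bipolar spindle motor KIF11 at -0.03 (0.761) and KIF20A at -0.01 (0.921), all with overlap. Of 25 other kinesins and spindle proteins, 3 fell and 1 rose, against 4.58% lower and 4.13% higher over all features. The 3 included CKAP2L, on chromosome 2. The kinesin KIFC1 fell by 0.18 on the log2 scale (SE 0.05, 0.0384), and KIF20B rose by 0.31 (SE 0.07, 0.0217). With 1 library left out in turn, KIFC1 was called in 0 fits and KIF20B in 1.

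Spindle microtubule proteins, chromosome structure and the anaphase ubiquitin machinery gave 1 call. NCAPH, the kleisin subunit of condensin I (ENSG00000121152, chr2:96335766-96377091, plus strand), had 40.4, 43.6 and 45.3 CPM in LOC401312 libraries, against 60.8, 59.5 and 61.8 in vector libraries. The mean was 43.1 ± 2.46 CPM in LOC401312 cells and 60.7 ± 1.15 CPM in vector cells (SD, n = 3 each), and the change was -0.49 (SE 0.05, adjusted p = 0.000395). It kept its call without any 1 library (up to 0.00557). The other condensin I subunits, which are not members, were SMC2 at 0.00, SMC4 at -0.02, NCAPD2 at 0.00 and NCAPG at -0.03, none called. TOP2A, the topoisomerase that untangles sister chromatids, was at 0.02 (0.854), and MKI67, the proliferation marker that coats mitotic chromosomes, at 0.08 (0.421).

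PRC1, which crosslinks midzone microtubules, had the largest SE of the log2 change among the members. It had 164, 163 and 126 CPM in LOC401312 libraries, against 140, 200 and 164 in vector libraries, and was at -0.15 (SE 0.13, adjusted p = 0.559). NUSAP1, a microtubule-stabilising protein, was at -0.16 (0.137) without overlap, and the Aurora A activator TPX2 at -0.04 (0.583) with overlap. CDC20, the activator of the anaphase-promoting complex, had 97.3, 92.9 and 92.3 CPM in LOC401312 libraries, against 101, 106 and 99.7 in vector libraries, and was at -0.12 (0.131). UBE2C, the ubiquitin-conjugating enzyme that works with this complex, was at -0.10 (0.220). CDC20 and UBE2C were both lower in every LOC401312 library than in any vector library. FOXM1, the transcription factor of late cell cycle genes, had 146, 151 and 154 CPM in LOC401312 libraries, against 153, 161 and 161 in vector libraries, and was at -0.07 (0.343).

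The members differed by chromosome. All 5 on chromosome 2 fell, whereas 3 of the 34 on other chromosomes fell and 1 rose. The rule called 27.1% of 1285 chromosome 2 features lower and 1.32% higher, against 3.01% lower and 4.33% higher of 18335 features elsewhere. Among features at least as abundant as the lowest member, 53.5% of 589 on chromosome 2 were called lower and 1.53% higher, against 4.92% lower and 6.21% higher of 8298 elsewhere. The median log2 change was -0.41 over the 5 members on chromosome 2 and -0.08 over the other 34. The ranges, -0.55 to -0.35 and -0.19 to 0.27, did not meet, and no test was made between these sets of genes. By role the 5 are a checkpoint kinase, a condensin subunit and 3 centromere or kinetochore proteins.

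**Figure D3:**
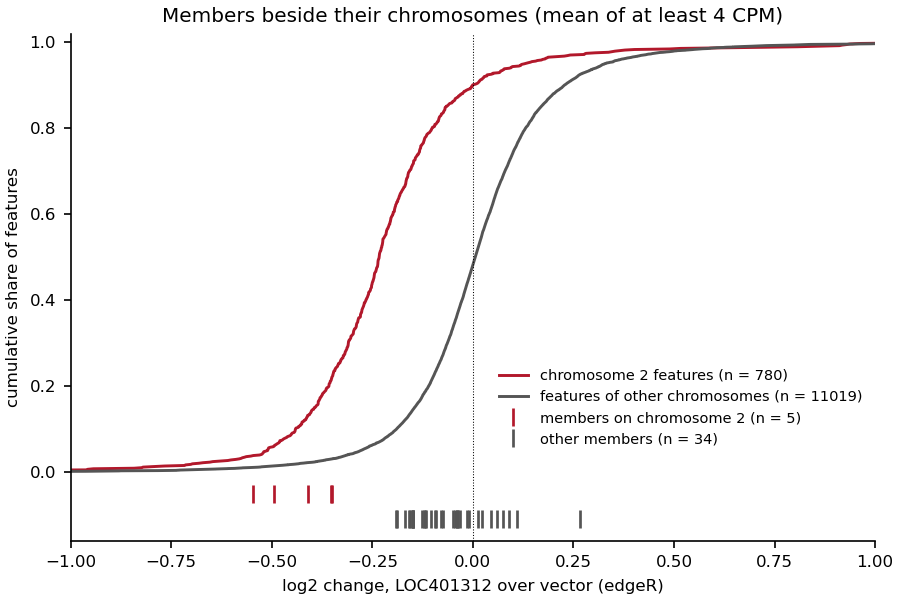
Cumulative share of features by log2 change (edgeR) for 780 features of chromosome 2 and 11019 of other chromosomes, all with a mean of at least 4 CPM, with ticks for the 5 members on chromosome 2 and the other 34. The chromosome 2 curve lies left of the other, and the 5 members lie in its lower part.

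The 5 members lay below the middle of their chromosome. The median change of the 780 chromosome 2 features with a mean of at least 4 CPM was -0.23. CENPA was lower than all but 30 of the 780, itself counted among the 30, which is 3.85%. NCAPH lay at 6.15%, SPC25 at 13.2%, BUB1 at 21.7% and SGO2 at 21.9%. After the median of its chromosome was subtracted in every library, CENPA was at -0.33 (adjusted p = 0.0477) and NCAPH at -0.28 (0.0114). BUB1 at -0.13 (0.143), SPC25 at -0.19 (0.290) and SGO2 at -0.13 (0.415) lost their calls. CCNB1 at -0.20 (0.0201), CCNB2 at -0.22 (0.0170) and PLK1 at -0.20 (0.0247) kept theirs. FOXM1, on chromosome 12, moved from -0.07 (0.343) to -0.20 and was called (0.0214), and CENPE at 0.23 was not (0.0657). In the deposited FPKM values FOXM1 was higher in every LOC401312 library than in any vector library. NCAPD2, which is not a member and is also on chromosome 12, moved from 0.00 to -0.12 under the same removal. This setting called 6 members lower and 0 higher by edgeR, against 2.9% of all features lower and 3.27% higher. At an unadjusted p under 0.05 it gave 16 lower and 2 higher members, against 10.3% of all features lower and 9.94% higher. Without that removal the counts were 16 lower and 1 higher, against 11.4% and 11.2%.

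The shift was present in each library. The median deviation of the 5 chromosome 2 members from their mean over the 6 libraries was -0.31, -0.17 and -0.18 in LOC401312 libraries, against 0.23, 0.23 and 0.19 in vector libraries. For the other 34 members it was -0.05, -0.01 and -0.01 in LOC401312 libraries, against 0.05, 0.05 and 0.02 in vector libraries. For chromosome 2 features it was -0.12, -0.11 and -0.11 in LOC401312 libraries, against 0.13, 0.11 and 0.11 in vector libraries. LOC401312 replicate 1 was lowest for both sets of members, and it is the library whose genotype label names LOC401312. Without replicates 2 and 3, with the lone LOC401312 library assumed to vary like the vector libraries, CENPA (adjusted p = 0.0478) and NCAPH (0.0274) were the members called.

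**Figure D4:**
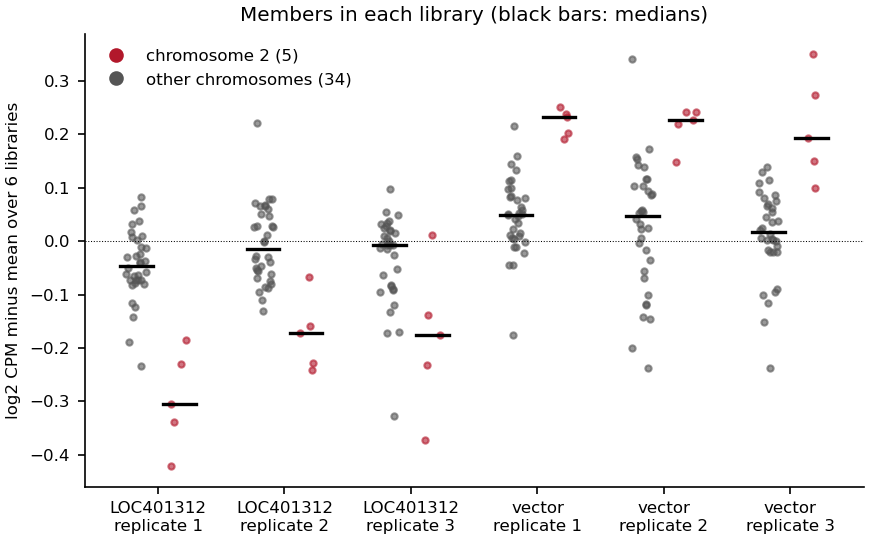
Log2 deviation of members from their mean over the 6 libraries, by library, for the 5 members on chromosome 2 and the other 34. Black bars are medians. The chromosome 2 members lie below 0 in the LOC401312 libraries, except SGO2 in replicate 3, and above 0 in the vector libraries, whereas the medians of the other members lie between -0.05 and 0.05.

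Levels per length, as deposited in FPKM, spread widely among the members. TOP2A was highest at 75.2 ± 1.37 FPKM in LOC401312 cells and 68.0 ± 6.92 FPKM in vector cells, followed by CCNB1 at 65.9 ± 1.97 FPKM in LOC401312 cells and 67.9 ± 1.33 in vector cells (SD, n = 3 each). TPX2 had 60.5 ± 1.29 FPKM in LOC401312 cells and 57.2 ± 2.15 in vector cells. UBE2C, with 44.1 ± 1.47 FPKM in LOC401312 cells and 43.4 ± 1.32 in vector cells, and CDC20, with 40.9 ± 1.77 in LOC401312 cells and 40.8 ± 1.85 in vector cells, came next. CENPE was lowest at 3.31 ± 0.161 FPKM in LOC401312 cells and 2.52 ± 0.287 FPKM in vector cells, near NDC80 at 3.57 ± 0.105 in LOC401312 cells and 3.18 ± 0.502 in vector cells. CENPA had 7.96 ± 0.604 FPKM in LOC401312 cells and 10.7 ± 0.406 in vector cells. The 6 highest members, with AURKA the sixth, and the 5 lowest, which also held SGO2, PLK4 and KIF14, came in the same order in both groups. In vector cells TOP2A and CCNB1 differed by less than their spread.

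The FPKM values placed the members differently. On that scale 15 members had a negative and 24 a positive change, on the scale shifted by 0.11, and 4 had all LOC401312 libraries below vector while 9 had all above. Over all features these shares were 5.61% and 27.8%. The 4 were all on chromosome 2, namely CENPA, NCAPH, SPC25 and BUB1. By limma on log2(FPKM + 0.1), 2 members were called lower and 1 higher, against 1.57% and 8.35% of all features. KIF4A was the member called higher, at 0.22 (limma, adjusted p = 0.0456). With the libraries rescaled to one median, 6 were called, all lower, against 3.15% of all features lower and 3.1% higher.

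**Figure D5:**
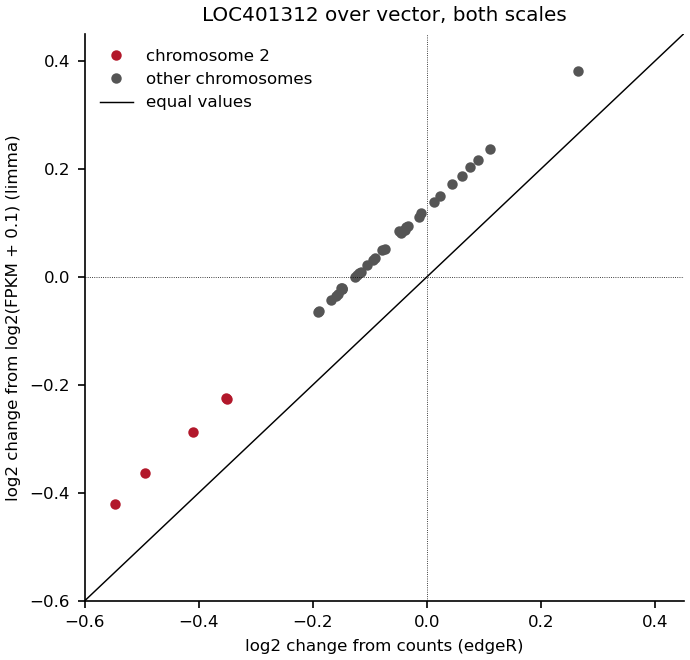
Log2 change of each member from counts (edgeR) and from FPKM (limma on log2(FPKM + 0.1)), LOC401312 over vector. The points lie above the line of equal change by about the shift of 0.11 in the FPKM scale, and the 5 chromosome 2 members stay lowest on both axes.

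The length of the feature moved with the change. Across the 39 members, the rank correlation of log2 change with the length implied by counts and FPKM was 0.39, and across the 34 members off chromosome 2 it was 0.50. Across 11798 features with a mean of at least 4 CPM it was 0.19. CENPE, CENPF and MKI67 were the longest members. The points share the libraries and the scaling, and implied length orders features without giving bases. With a loess trend on this length removed, the correlation over members was 0.19, CENPE was at 0.22 and was not called (edgeR, adjusted p = 0.0561), and 8 members were lower, against 5.14% of all features lower and 3.98% higher. 

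Among genes around the members in the same pathways the shares called were near those of all features. Of 140 tested genes in 6 related lists, 9 fell and 4 rose, against 4.58% lower and 4.13% higher over all features, with a median of -0.03 (0.10 on the shifted FPKM scale). Of 21 other kinases and phosphatases of mitotic entry, MELK fell by 0.30 on the log2 scale (SE 0.04, adjusted p = 0.00243) and CKS2, a small subunit bound to CDK1, by 0.31 (SE 0.05, 0.00516). MELK, CKS2, HJURP and ANAPC1 kept their calls without any 1 library (up to 0.0238, 0.0347, 0.00126 and 0.0250). The other 9 called genes of these lists, SPC24, KIFC1, KIF20B, CEP55, CKAP2L, PTTG1, ANAPC5, NEK7 and NEK9, lost theirs without at least 4 of the 6 libraries in turn (edgeR, adjusted p up to 0.168). The kinase NEK7 rose by 0.26 (0.0278) and NEK9, which activates it, by 0.16 (0.0459). Of 34 other kinetochore and centromere genes, HJURP and SPC24, given above, fell. Of 19 genes of condensin, cohesin and separase, the securin PTTG1 fell by 0.19 (SE 0.05, 0.0345). Of 18 genes of the anaphase-promoting complex, ANAPC1, on chromosome 2, fell by 0.26 (0.00391) and ANAPC5, on chromosome 12, rose by 0.18 (0.0223). With chromosome medians removed ANAPC1 was at -0.05 (0.599), ANAPC5 at 0.06 (0.494), CKAP2L at -0.02 (0.925) and NEK9 at 0.15 (0.0666), none called, and the other 9 kept their calls. Of 23 transcription factors and regulators of the late cell cycle, 0 passed the edgeR test and DESeq2 called 0. By edgeR 1 was higher at an unadjusted p under 0.05, against 11.2% of all features. By limma on FPKM 2 were called higher, against 8.35% of all features. The cyclin-dependent kinase inhibitor CDKN1A was at 0.08 (0.389).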

How the data were processed

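RNA of 6 A549 libraries was measured, 3 with LOC401312 and 3 with empty vector, grouped by their titles. The authors deposited one table that gives, per the file headers, a column of raw counts and one of FPKM for every library. Counts were deposited by the authors as whole numbers with no normalization. FPKM is by its name scaled for length and library total, but the total used by the authors was not given. It did not follow the count totals. Over all tested features the median log2 change was 0.02 from counts with total-count scaling, against 0.11 on log2(FPKM + 0.1). The cause of this gap was not tested. The submitters' processing notes name cutadapt 1.9, FastQC and the build GRCh38. Aligner, counter, annotation release and strand setting were not given in the sources used here. Whether overlapping antisense genes were counted apart is therefore not known. Of 38170 features, 4900 had 0 counts in all libraries.

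Members, role groups and related lists were chosen with earlier results of these data known. Counts were tested with edgeR 4.0.16 (quasi-likelihood, TMM scaling, filterByExpr, group as the only term) in R 4.3.3 over 19620 features, with p adjusted by Benjamini-Hochberg and called at 0.05. Adjusted p-values are from this fit unless another tool is named. Standard errors are the log2 change over the square root of F, and CPM uses TMM-adjusted library sizes. The biological coefficient of variation was 17.0%. Member counts were 779 to 42702 per library, and for some members the spread between libraries is no larger than counting error. Libraries of one group were not duplicates: pairs had a chi-square of 13.7 to 22.9 per degree of freedom, and each counted as 1 replicate. With 3 against 3 an exact permutation test cannot go below p = 0.1, so none was used. Replicate numbers did not pair the libraries. Alternatives were DESeq2 1.42.0, other scalings and filters, limma 3.58.1 on FPKM with pseudocounts of 0.1 and 1, removal of chromosome medians, a replicate block and libraries left out. Removal of a length trend (loess span 0.3) was added after the data were seen. The fits were tested on simulated data. Every member, the called genes of the related lists and the genes beside them in the text were named, some after their values were seen. Promoter windows and their counts come from RefSeq.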

Additional observations from a re-analysis of the deposited data

How the results depend on the processing

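The 9 calls among members (8 lower, 1 higher) were also made by DESeq2 (8 and 1), RLE scaling (8 and 1) and a minimum of 4 CPM (8 and 1). Over all features DESeq2 called 1140 lower and 1168 higher of 16587, RLE scaling 898 and 822 of 19620, and the 4 CPM minimum 971 and 880 of 11802. Total-count scaling gave 8 calls (7 and 1), with 754 lower and 999 higher over all features. Removal of the length trend gave 8 (8 and 0), with 1009 and 780. Removal of chromosome medians gave 6 (6 and 0), with 569 lower and 641 higher over all features. No low-count filter gave 5 (5 and 0), with 577 and 586 of 33270, and an adjusted p of 0.01 gave 3 (3 and 0). Without LOC401312 replicates 2 and 3 there were 2 (2 and 0), with 91 lower and 84 higher over all features. limma on log2(FPKM + 0.1) gave 3 (2 and 1), with 308 lower and 1639 higher over all features. On log2(FPKM + 1) it gave 3 (2 and 1), with 305 and 1625 of 19620. With a mean FPKM of at least 1 it gave 7 (4 and 3), with 363 lower and 2102 higher of 11666. On rescaled FPKM it gave 6 (6 and 0), with 619 and 608 of 19620. Leaving out 1 library gave 3 to 9 calls, 3 to 7 lower and 0 to 2 higher, with 439 to 1042 lower and 393 to 963 higher over all features. Replicate numbers did not pair the libraries (correlations of same-numbered deviations -0.18, -0.019 and -0.078), and the replicate block gave 4 calls (4 and 0), with 579 lower and 509 higher over all features. The causes of these differences were not tested.

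The members' median, -0.09, was -0.12 with chromosome medians removed, 0.03 on FPKM with either filter or pseudocount (0.0316, 0.0316 and 0.0300), -0.0753 on rescaled FPKM, -0.0705 with total-count scaling and -0.11 to -0.0851 with 1 library left out. The chromosome 2 members minus the others, -0.33, stayed negative in every setting, at -0.0851 with chromosome medians removed, -0.30 with the length trend removed or on log2(FPKM + 1), -0.40 without LOC401312 replicates 2 and 3, and -0.41 to -0.32 with 1 library left out.

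Some members with no call changed sign between settings. On log2(FPKM + 0.1) the median feature at or above a mean of 5 FPKM was 0.11 higher in LOC401312 cells. On log2(FPKM + 0.1), with or without the FPKM minimum, and then on log2(FPKM + 1), the values were CDC20 0.00387 and 0.00379, MAD2L1 0.00703 and 0.00633, CDCA8 0.00949 and 0.00892, UBE2C 0.0221 and 0.0216, INCENP 0.0316 and 0.03, CDK1 0.0353 and 0.0337, PLK4 0.0495 and 0.0411, FOXM1 0.0513 and 0.0496, KIF14 0.085 and 0.0701, TPX2 0.0806 and 0.0793, BUB3 0.0862 and 0.0818, AURKA 0.0867 and 0.0846, KIF18A 0.0921 and 0.0805, KIF11 0.0939 and 0.0891, KIF20A 0.11 and 0.11, and TTK 0.12 and 0.10. On rescaled FPKM they were KIF20A 0.0043 and TTK 0.0131, with total-count scaling KIF20A 0.0108 and TTK 0.0127, with chromosome medians removed CCNA2 -0.0225, with the length trend removed TOP2A -0.00739, and without LOC401312 replicates 2 and 3 CCNA2 -0.0433, TOP2A -0.028 and NDC80 -0.0175. With 1 library left out, the ranges that crossed 0 were CCNA2 from -0.0303 to 0.0435, KIF11 from -0.0681 to 0.00947, KIF14 from -0.17 to 0.0524, KIF18A from -0.11 to 0.0123, KIF20A from -0.0577 to 0.0278, NDC80 from -0.0031 to 0.14, TOP2A from -0.0209 to 0.0703, and TTK from -0.10 to 0.0457. The lowest count of a member in a library was 779.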
